A study of Rattus norvegicus with 12 samples.

Results

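The transcripts described here encode the enzymes that remove superoxide and hydrogen peroxide in rat heart-derived cells: the superoxide dismutases Sod1 and Sod2, the glutathione peroxidases Gpx1 and Gpx4, the peroxiredoxins Prdx1, Prdx2, Prdx3, Prdx5 and Prdx6, and catalase, Cat. They were chosen by name, as 10 of the 35966 gene rows of the deposited table, and each was among the 12314 genes that reached 1 TPM (transcripts per 1000000) in at least 3 libraries. Total RNA of H9c2(2-1), a myoblast line from embryonic rat heart with the genotype given as WT, was sequenced in 4 groups of 3 libraries. The GD group was deprived of glucose for 36 h, 1 group was deprived for 36 h with 100 µM empagliflozin, and 1 group was deprived for 36 h with 200 µM empagliflozin. The control group was kept in high-glucose DMEM with 10% FBS. Empagliflozin, a medicine for diabetes, blocks SGLT2, a glucose transporter of the kidney. The labels give serum for the control group and name no solvent for the drug. Whether deprived cells had serum is not said, so glucose and serum cannot be told apart in GD against control. The labels call the samples triplicates without saying that each was a separate culture. P-values therefore measure only the spread between these samples, which may be technical.

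Superoxide, formed mainly by the respiratory chain and by oxidases, is turned into hydrogen peroxide by the dismutases. Hydrogen peroxide is then reduced by catalase in peroxisomes, by glutathione peroxidases at the expense of glutathione, and by peroxiredoxins, most of which are reduced in turn by thioredoxin. In heart muscle, which is rich in mitochondria, the mitochondrial dismutase Sod2 and the mitochondrial peroxiredoxins handle oxidants at the place where many of them arise.

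The library totals were 946401 to 981390 TPM. The depth is unknown, because read numbers cannot be recovered from TPM. Within each group, library pairs correlated at 0.990 to 0.994 over the log2 values of tested genes, and no columns were identical. Ribosomal protein and ferritin transcripts took 35.8% to 41.5% of all TPM in the 9 deprived libraries, against 18.7% to 19.3% in control libraries. TPM share a fixed total, and the median gene lay at -0.65 on the log2 scale in GD against control cells. The part of the ribosomal protein and ferritin transcripts in that median was not tested. Members whose direction turned when those genes were left out are named in the closing section. A difference is therefore also given after median-of-ratios scaling where that changes its call or direction or moves it by over 1.5 times. This scaling divides each library by the median ratio of its genes to their geometric mean over all libraries. Where the levels of libraries or groups are said to overlap or to stand in an order, TPM as deposited are meant. Relative to GD that median lay at 0.019 for 100 µM and 0.14 for 200 µM, and it was 0.12 between the doses. GD replicate 3 stood apart from the other GD libraries, with the fewest genes at 1 TPM (10551) and the lowest median of tested genes (6.84 TPM). Of 14 cardiac muscle markers 4 were detected at 1 TPM in 3 libraries: Tnnt2 (17.7 to 154 TPM over the 12 libraries), Tnnc1 (7.79 to 175 TPM), Gata4 (1.53 to 6.58 TPM) and Pln (0 to 6.25 TPM). The other 10 did not pass, and of these Myh6, Myh7 and Nkx2-5 did not exceed 0.12 TPM while Ryr2 and Myl7 were at 0 in every library, so the label of myocardial cells was met by some of its markers and not by others. The summed cardiac level was 33.3 to 41.4 TPM in GD, 29.4 to 42.7 TPM at 100 µM, 44.0 to 76.6 TPM at 200 µM and 302 to 342 TPM in control libraries. Of 9 skeletal myoblast markers 5 were detected, and their summed level was 28.3 to 31.8 TPM in GD, 21.7 to 28.5 TPM at 100 µM, 30.8 to 39.7 TPM at 200 µM and 261 to 268 TPM in control libraries. The summed level of the 7 fibroblast markers in the table, of which 4 were detected and Tcf21 was at 0, was 677 to 1275 TPM in GD, 812 to 1714 TPM at 100 µM, 2352 to 3094 TPM at 200 µM and 15080 to 16764 TPM in control libraries. The 6 endothelial markers did not exceed 0.55 TPM in sum in any library. The 7 leukocyte markers, of which 2 were detected and Ptprc did not exceed 0.01 TPM, summed to 4.48 to 7.23 TPM in GD, 6.22 to 7.48 TPM at 100 µM, 12.8 to 16.3 TPM at 200 µM and 34.5 to 37.2 TPM in control libraries. The cardiac, skeletal, fibroblast and leukocyte sums were thus lower in all deprived libraries than in control libraries. The cardiac, fibroblast and leukocyte sums were higher at 200 µM than in GD without overlap, and the part of these lists in the results below was not tested. In bulk RNA, fewer cells of a type and less RNA per cell cannot be told apart.

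The 10 enzymes were abundant transcripts. Their mean TPM ranked between the 85.2th percentile (Cat) and the 99.4th percentile (Prdx5) of the tested genes. TPM are scaled to transcript length, so levels may be set beside each other: Prdx5 had the highest mean TPM in all 4 groups, and Cat the lowest. Sod1 came next to Prdx5 in all 3 deprived groups, while in control cells Gpx4, Prdx2 and Sod1 followed Prdx5 with overlapping ranges of 1013 to 1132, 1027 to 1104 and 1027 to 1052 TPM. Sod2 had the ninth mean of the 10 in GD and in control cells and the sixth at both doses. The summed TPM of all 10 was 7961 ± 53.2 in GD, 9112 ± 463 at 100 µM, 8121 ± 390 at 200 µM and 6732 ± 242 in control cells (SD, n = 3 each).

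**Figure D1:**
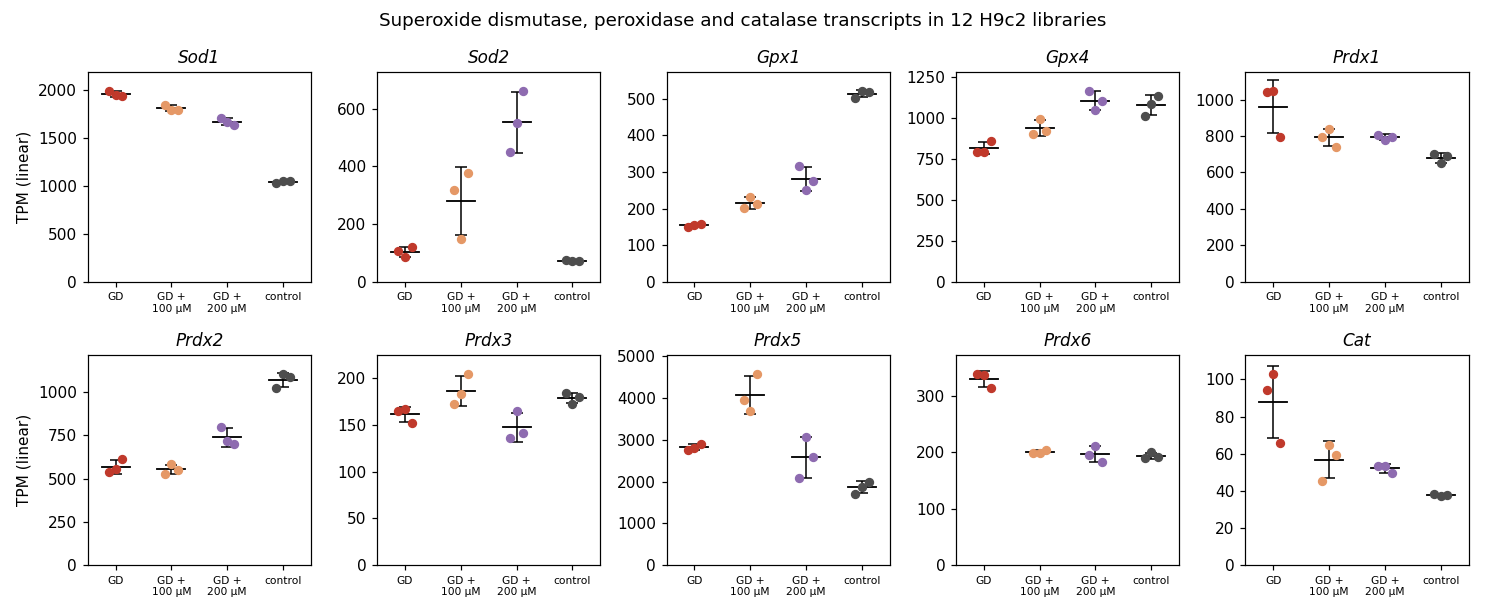
TPM of each enzyme gene (linear vertical axes that start at 0) in every library of the 4 groups, GD, GD with 100 µM or 200 µM empagliflozin, and control. Points are libraries, long ticks are group means and bars are SD (n = 3). Sod2 and Gpx1 are higher at 200 µM than in GD without overlap, Prdx6 and Cat are lower at 200 µM than in GD, and Prdx5 is highest at 100 µM.

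GD against control cells gave a divided picture, with most peroxiredoxins, Sod1 and Cat higher and the glutathione peroxidases and Prdx2 lower in TPM. As deposited, 5 of the 10 genes rose in GD against control cells (Sod1, Prdx1, Prdx5, Prdx6 and Cat) and 3 fell (Gpx1, Gpx4 and Prdx2), at an adjusted p under 0.05 from limma over all 12314 tested genes. In the same comparison 14.0% of all tested genes rose and 67.6% fell. After median-of-ratios scaling 8 of the 10 rose and 1, Gpx1, fell, against 38.5% of all tested genes in each direction. The median log2 difference of the 10 was 0.49 as deposited and 1.26 after scaling, beside -0.65 and 0.0040 for all tested genes.

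Against GD, some of the 10 enzymes rose and others fell at each dose, and all tested genes likewise divided between both directions. At 200 µM against GD, 4 rose as deposited (Sod2, Gpx1, Gpx4 and Prdx2) and 4 fell (Sod1, Prdx1, Prdx6 and Cat), beside 32.0% of all tested genes that rose and 11.4% that fell. After scaling, 2 rose (Sod2 and Gpx1) and 5 fell (the same 4 and Prdx3), beside 22.4% and 24.4% of all tested genes. At 100 µM against GD, 4 rose (Sod2, Gpx1, Gpx4 and Prdx5) and 2 fell (Prdx6 and Cat), beside 7.51% and 5.46% of tested genes; after scaling 3 rose (Sod2, Gpx1 and Prdx5) and 3 fell (Prdx1, Prdx6 and Cat), beside 7.77% and 10.9%. The median log2 difference of the 10 was -0.14 at 200 µM and 0.082 at 100 µM as deposited, and -0.34 and 0.045 after scaling, where all tested genes had -0.012 and -0.0082. The comparisons with GD and the comparison of GD with control share the 3 GD libraries, so their values are given side by side and no agreement between them is counted.

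**Figure D2:**
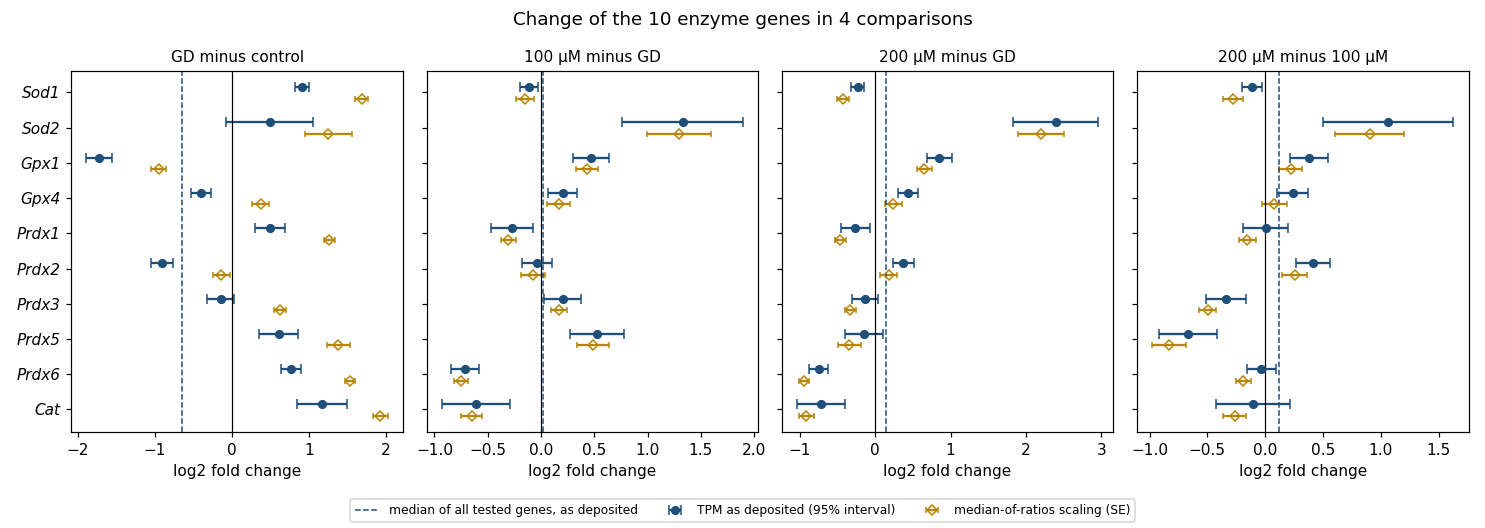
Log2 fold changes of the 10 enzyme genes of GD relative to control, of each dose relative to GD and of 200 relative to 100 µM (horizontal axes, a separate range per panel). Filled circles are TPM as deposited with the 95% interval, open diamonds are the values after median-of-ratios scaling with the SE, and the dashed line is the median of all tested genes as deposited. In GD against control all diamonds except those of Gpx1 and Prdx2 lie above 0, and Sod2 has the longest positive bar at both doses against GD.

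Sod2, the manganese dismutase of the mitochondrial matrix, varied most of the 10 across the libraries on the log2 scale. It had 106, 85.7 and 121 TPM in GD libraries, 317, 150 and 376 TPM at 100 µM, 450, 549 and 662 TPM at 200 µM, and 76.7, 70.9 and 73.1 TPM in control libraries. No 2 groups overlapped, and replicate 2 lay well below the other 100 µM libraries. At 200 µM it was 5.25-fold higher than in GD (log2 difference 2.39, 95% interval 1.83 to 2.96, limma adjusted p = 1.32e-05), and at 100 µM 2.51-fold higher (1.33, 0.76 to 1.90, adjusted p = 0.00571). The 2 doses differed by 1.06 (SE 0.26, adjusted p = 0.00723), and by 0.66 without replicate 2 of the 100 µM group (adjusted p = 0.00644). In GD it was higher than in control by 0.49, which did not pass (adjusted p = 0.102), whereas it passed after scaling (1.25, adjusted p = 0.00228). Against control cells it was 7.36-fold higher at 200 µM (2.88, adjusted p = 4.79e-07).

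Sod1, the copper and zinc dismutase of the cytosol, changed in the opposite direction with the drug. It had 1987, 1948 and 1930 TPM in GD libraries, 1843, 1793 and 1790 TPM at 100 µM, 1710, 1660 and 1635 TPM at 200 µM, and 1027, 1052 and 1045 TPM in control libraries. As deposited, the 4 groups did not overlap, and their order ran down with dose while all deprived libraries stayed above control. After scaling the GD and 100 µM libraries overlapped. At 200 µM Sod1 fell by 0.23 on the log2 scale against GD (SE 0.040, limma adjusted p = 0.000548; -0.43 after scaling, adjusted p = 0.00146). The step at 100 µM against GD was -0.11 (adjusted p = 0.0894), and the step between the doses was -0.12 (adjusted p = 0.0399; -0.28 after scaling, adjusted p = 0.0234). The last call was lost without any 1 of the 6 libraries compared, with values of -0.13 to -0.10 and adjusted p of 0.0507 to 0.119. The summed TPM of both dismutases was 2059 ± 30.9 in GD, 2090 ± 127 at 100 µM, 2222 ± 69.4 at 200 µM and 1115 ± 10.0 in control cells (SD, n = 3 each). The sum thus lay between 1943 and 2297 TPM in all deprived libraries, and between 1104 and 1123 TPM in control libraries.

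The ratio of 2 genes within a library does not depend on how libraries are scaled to each other. Sod2 over Sod1 was 0.0440 to 0.0629 in GD, 0.0835 to 0.210 at 100 µM, 0.263 to 0.405 at 200 µM and 0.0674 to 0.0747 in control libraries. All 4 ranges were separate. With 3 libraries against 3, an exact permutation test of such a ratio cannot give a two-sided p below 0.1, so the ratios are given as values.

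**Figure D3:**
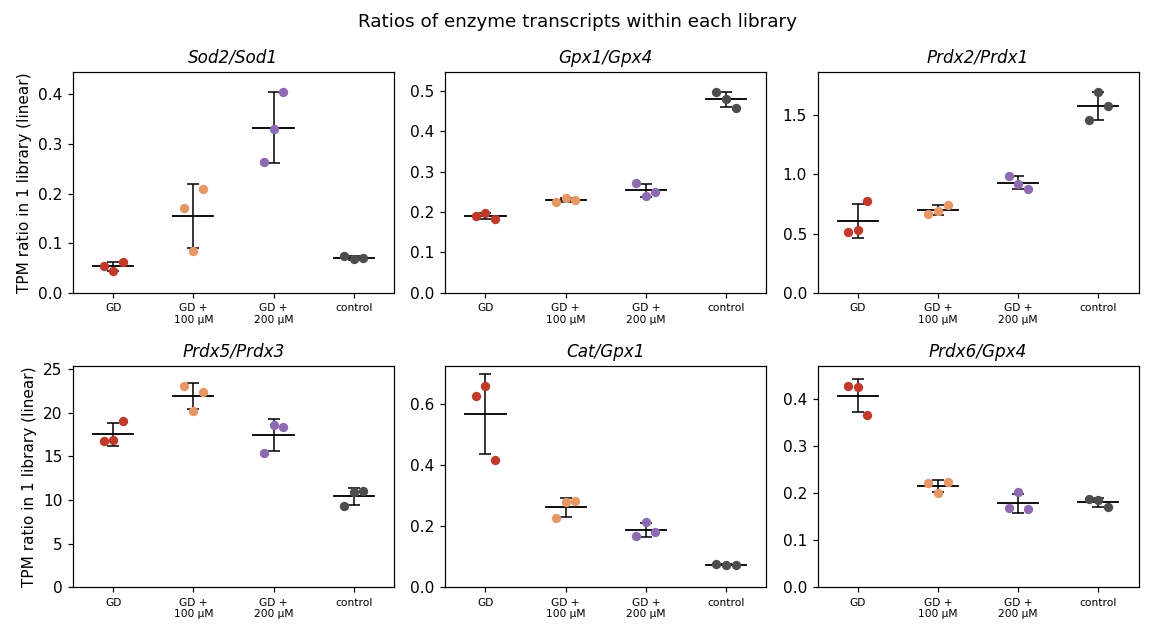
TPM ratios of 6 pairs of enzyme genes within each library (linear vertical axes that start at 0), by group. Points are libraries, long ticks are means and bars are SD (n = 3). Sod2/Sod1 is highest at 200 µM, Gpx1/Gpx4 and Prdx2/Prdx1 are highest in control, and Cat/Gpx1 and Prdx6/Gpx4 are highest in GD.

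Gpx1, the abundant selenium-dependent peroxidase of cytosol and mitochondria that uses glutathione, was the only member that fell in GD against control under both scalings. It had 151, 156 and 157 TPM in GD libraries, 201, 233 and 212 TPM at 100 µM, 317, 252 and 275 TPM at 200 µM, and 503, 522 and 518 TPM in control libraries. As deposited, the groups did not overlap and stood in the order GD, 100 µM, 200 µM, control. After scaling the 100 µM and 200 µM libraries overlapped. In GD it was 3.31-fold lower than in control (log2 difference -1.73, 95% interval -1.89 to -1.56, limma adjusted p = 3.78e-10), and -0.95 after scaling (adjusted p = 2.31e-06). It was higher than in GD by 0.47 at 100 µM (adjusted p = 0.00222) and by 0.85 at 200 µM (adjusted p = 2.99e-06). It stayed below control at 200 µM, at -0.88 (adjusted p = 3.53e-07; -0.30 after scaling, adjusted p = 0.0175). The step between the doses was 0.38 (adjusted p = 0.00216), and 0.22 after scaling, where it did not pass (adjusted p = 0.104).

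Gpx4, the selenoenzyme that reduces lipid hydroperoxides in membranes, varied less. It had 793, 793 and 857 TPM in GD libraries, 899, 994 and 918 TPM at 100 µM, 1164, 1047 and 1105 TPM at 200 µM, and 1013, 1086 and 1132 TPM in control libraries. GD libraries were the lowest and did not overlap with any other group, while the 200 µM and control libraries overlapped. Its difference in GD against control was -0.40 as deposited (limma adjusted p = 3.91e-05) and turned to 0.37 after scaling (adjusted p = 0.00712), and it was 0.25 above the median of all tested genes. At 200 µM against GD it rose by 0.44 (adjusted p = 8.86e-05), which did not pass after scaling (0.24, adjusted p = 0.0811). The rise at 100 µM, 0.20 with an adjusted p of 0.0468, was lost after scaling (0.17, adjusted p = 0.307) and without any 1 of 5 libraries (all but GD replicate 3), with values of 0.16 to 0.23 and adjusted p of 0.056 to 0.148. Gpx1 over Gpx4 was 0.184 to 0.197 in GD, 0.224 to 0.234 at 100 µM, 0.241 to 0.272 at 200 µM and 0.458 to 0.497 in control libraries, so the pair differed in how far each moved, whatever the scaling.

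Among the peroxiredoxins, Prdx6 and Prdx1 were higher in GD than in control and lower with the drug than in GD. Prdx6, which acts through a single cysteine and draws on glutathione, had 339, 338 and 314 TPM in GD libraries, 199, 199 and 205 TPM at 100 µM, 196, 211 and 183 TPM at 200 µM, and 190, 200 and 192 TPM in control libraries. The GD libraries stood above the other 9, whose ranges overlapped. In GD it was higher than in control by 0.76 (limma adjusted p = 5.79e-08; 1.53 after scaling, adjusted p = 9.09e-10). It fell against GD by 0.71 at 100 µM (adjusted p = 3.55e-05) and by 0.75 at 200 µM (adjusted p = 9.78e-07), and the doses did not differ by the test (-0.033, 95% interval -0.16 to 0.094, adjusted p = 0.706; after scaling -0.19, adjusted p = 0.0358). Against control the 200 µM value was 0.015 (adjusted p = 0.824), and 0.59 after scaling (adjusted p = 5.61e-06), so its closeness to control holds on the TPM scale alone.

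Prdx1, a cytosolic thioredoxin-dependent peroxidase, had 1044, 1048 and 794 TPM in GD libraries, 797, 838 and 741 TPM at 100 µM, 808, 780 and 797 TPM at 200 µM, and 702, 651 and 688 TPM in control libraries. GD replicate 3 lay among the drug libraries, and the other GD libraries lay above all. The rise in GD against control was 0.49 (SE 0.090, limma adjusted p = 0.000224; 1.26 after scaling, adjusted p = 1.09e-08). At 200 µM it fell by 0.26 against GD (adjusted p = 0.0314; -0.46 after scaling, adjusted p = 0.000285), by 0.40 without GD replicate 3 (adjusted p = 0.000255), and the call was lost without any 1 of the other 5 libraries, with adjusted p of 0.0598 to 0.126. At 100 µM the difference was -0.27 (adjusted p = 0.0697), and it passed without GD replicate 3 (-0.40, adjusted p = 0.00146) and after scaling (-0.31, adjusted p = 0.0138). The table also lists Prdx1l1, described there as peroxiredoxin 1-like 1, at 92.7 ± 9.0 TPM in GD, 75.2 ± 5.8 TPM at 100 µM, 69.2 ± 5.2 TPM at 200 µM and 62.5 ± 6.2 TPM in control cells (SD, n = 3 each). Reads of near-identical copies may have been divided between the pair, so their separate values are uncertain.

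Prdx2, the other main cytosolic peroxiredoxin, took the opposite course. It had 540, 553 and 614 TPM in GD libraries, 528, 582 and 550 TPM at 100 µM, 800, 715 and 700 TPM at 200 µM, and 1027, 1104 and 1088 TPM in control libraries. The GD and 100 µM libraries overlapped, the 200 µM libraries lay above both, and the control libraries above all. In GD it fell against control as deposited (log2 difference -0.92, limma adjusted p = 3.11e-08), and its difference was -0.14 after scaling (adjusted p = 0.251). At 200 µM it rose against GD by 0.38 (adjusted p = 0.000567), and by 0.18 after scaling, where it did not pass (adjusted p = 0.201). Prdx2 over Prdx1 was 0.517 to 0.774 in GD, 0.662 to 0.742 at 100 µM, 0.879 to 0.990 at 200 µM and 1.46 to 1.70 in control libraries, so control cells were the only group with more Prdx2 than Prdx1 transcript.

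Prdx5, found in mitochondria, peroxisomes and cytosol, did not follow dose. It had 2757, 2815 and 2897 TPM in GD libraries, 3967, 3700 and 4575 TPM at 100 µM, 2091, 3071 and 2590 TPM at 200 µM, and 1709, 1882 and 1994 TPM in control libraries. The 100 µM libraries lay above all others, and the 200 µM libraries spread across the GD range. In GD it was higher than in control by 0.60 (limma adjusted p = 0.000304; 1.38 after scaling, adjusted p = 2.94e-06). At 100 µM it rose against GD by 0.53 (adjusted p = 0.0104), whereas at 200 µM the difference from GD was -0.14 (95% interval -0.40 to 0.11, adjusted p = 0.338; -0.34 after scaling, adjusted p = 0.0778). The doses themselves differed by -0.67 (SE 0.12, adjusted p = 0.000746), and by -0.83 after scaling (adjusted p = 0.00106).

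Prdx3, the peroxiredoxin of the mitochondrial matrix, varied least of the 10 across the libraries on the log2 scale. It had 165, 167 and 152 TPM in GD libraries, 172, 183 and 204 TPM at 100 µM, 136, 165 and 141 TPM at 200 µM, and 184, 173 and 180 TPM in control libraries. The 100 µM libraries lay above the GD and 200 µM libraries and overlapped with control. The difference in GD against control was -0.15 as deposited (limma adjusted p = 0.104) and 0.62 after scaling (adjusted p = 8.08e-06). Between the doses it fell by 0.34 at 200 µM against 100 µM (adjusted p = 0.00577). At 200 µM against GD it was -0.13 (adjusted p = 0.199), -0.22 without replicate 2 of the 200 µM group (adjusted p = 0.0405) and -0.33 after scaling (adjusted p = 0.00336). Both mitochondrial peroxiredoxins were thus lower at 200 than at 100 µM, while mitochondrial Sod2 was higher. Prdx5 over Prdx3 was 16.7 to 19.0 in GD, 20.2 to 23.1 at 100 µM, 15.4 to 18.6 at 200 µM and 9.30 to 11.1 in control libraries.

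Cat, the peroxisomal enzyme that splits hydrogen peroxide without a thiol partner, had 94.4, 103 and 65.8 TPM in GD libraries, 45.6, 64.9 and 59.5 TPM at 100 µM, 53.2, 53.4 and 49.5 TPM at 200 µM, and 38.3, 37.3 and 37.7 TPM in control libraries. The GD libraries lay above all others and the control libraries below all, while the dose groups overlapped, and GD replicate 3 was the lowest of its group. Cat was 2.25-fold higher in GD than in control (log2 difference 1.17, 95% interval 0.85 to 1.49, limma adjusted p = 7.33e-06). This was the largest rise among the 10 in GD against control, as deposited and after scaling (1.92, adjusted p = 3.99e-09). At 200 µM it fell against GD by 0.72 (adjusted p = 0.00173). At 100 µM it fell by 0.61 (adjusted p = 0.0174), and the call was lost without replicate 1 of the 100 µM group (-0.46, adjusted p = 0.0696), GD replicate 1 (-0.55, adjusted p = 0.0692) or GD replicate 2 (-0.48, adjusted p = 0.0690). Cat over Gpx1 was 0.418 to 0.659 in GD, 0.226 to 0.281 at 100 µM, 0.168 to 0.212 at 200 µM and 0.0714 to 0.0761 in control libraries.

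Between the doses, 4 members were higher at 200 than at 100 µM (Sod2, Gpx1, Gpx4 and Prdx2) and 3 lower (Sod1, Prdx3 and Prdx5), beside 25.7% and 8.06% of all tested genes. After scaling 1 was higher (Sod2) and 4 lower (Sod1, Prdx3, Prdx5 and Prdx6), beside 18.7% and 18.4%. Against control, 5 members were higher and 3 lower at 100 µM as deposited, beside 14.1% and 66.6% of tested genes, and 8 and 1 after scaling, beside 38.4% and 38.2%. At 200 µM against control the counts were likewise 5 and 3, beside 13.4% and 62.8%, and 8 and 1 after scaling, beside 35.3% and 35.6%. Among these, the higher Prdx1 was 0.22 at each dose as deposited (after scaling 0.95 at 100 µM and 0.80 at 200 µM), and it did not pass at 100 µM without any 1 of 5 libraries (all but replicate 3 of the 100 µM group; adjusted p of 0.0514 to 0.125) or at 200 µM without any 1 of the 6 compared (0.0501 to 0.114).

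The start regions of the genes that changed most (Sod2 and Gpx1), and of Cat and Prdx1, which were both higher in GD and lower at 200 µM, are printed to show how far they share short motifs. Each window runs from 250 bases before to 50 bases after the RefSeq gene start on GRCr8, 5′ to 3′ on the gene's strand, and capitals mark matches to the motifs listed after the sequences. The windows are chr1:50050119-50050418 (minus strand), chr8:117905212-117905511 (plus strand), chr3:110329477-110329776 (minus strand) and chr5:135383656-135383955 (plus strand).
Sod2: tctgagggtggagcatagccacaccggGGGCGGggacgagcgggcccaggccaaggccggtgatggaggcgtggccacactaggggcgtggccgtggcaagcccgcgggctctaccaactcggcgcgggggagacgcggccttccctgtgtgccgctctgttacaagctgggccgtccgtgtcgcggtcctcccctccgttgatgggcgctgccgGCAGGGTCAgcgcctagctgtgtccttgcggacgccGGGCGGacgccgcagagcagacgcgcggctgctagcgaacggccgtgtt
Gpx1: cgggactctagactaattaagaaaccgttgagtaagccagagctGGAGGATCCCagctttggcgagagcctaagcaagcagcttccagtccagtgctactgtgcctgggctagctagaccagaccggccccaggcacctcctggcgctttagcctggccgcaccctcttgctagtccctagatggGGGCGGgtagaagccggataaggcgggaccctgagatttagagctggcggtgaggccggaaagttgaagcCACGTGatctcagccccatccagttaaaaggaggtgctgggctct
Cat: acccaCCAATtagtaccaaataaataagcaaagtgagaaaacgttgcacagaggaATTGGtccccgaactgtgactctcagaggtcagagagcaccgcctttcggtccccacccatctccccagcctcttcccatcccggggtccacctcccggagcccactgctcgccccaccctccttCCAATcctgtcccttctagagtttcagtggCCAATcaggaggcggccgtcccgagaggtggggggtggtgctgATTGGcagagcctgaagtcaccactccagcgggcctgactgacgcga
Prdx1: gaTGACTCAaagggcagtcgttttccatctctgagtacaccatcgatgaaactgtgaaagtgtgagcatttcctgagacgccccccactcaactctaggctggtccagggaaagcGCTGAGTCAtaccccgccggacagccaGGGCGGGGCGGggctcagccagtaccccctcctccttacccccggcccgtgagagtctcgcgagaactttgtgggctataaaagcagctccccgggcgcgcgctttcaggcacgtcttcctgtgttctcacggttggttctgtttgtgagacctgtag
RefSeq windows were found for 9 of the 10 members, 11 windows in all, with 3 for Gpx4 and none for Prdx6.

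Both strands were searched. The core of the antioxidant response element, the site of NRF2, was written TGACNNNGC, AP-1 TGANTCA, FOXO GTAAACA, E-box CACGTG, GC box GGGCGG and CCAAT box CCAAT. The kappa-B pattern was GGGA and CC with 4 bases of any kind between them. The antioxidant response core was found in Sod2 (GCAGGGTCA, beginning 35 bases before the start), Prdx1 (GCTGAGTCA, beginning 135 bases before it) and Prdx5 (GCAGAGTCA, beginning 1 base before it), 3 of the 11 windows, while 12.1% of all 33469 windows hold it. In Prdx1 it overlapped with an AP-1 match, a motif that stood in 7.33% of all windows and in no other member's. The Cat window held 5 CCAAT matches and no GC box, against 10 of 11 member windows with a GC box and 33.1% of all. CCAAT stood in 37.5% of all windows, and the Gpx1 window held an E-box (6.42% of all). The kappa-B pattern stood in 6 of 11 member windows, of Gpx1, Gpx4, Prdx3 and Sod1, but not in that of Sod2, and in 19.3% of all. Every Gpx4 window is counted separately in these kappa-B and GC box figures. The Gpx4 windows that start at 10303580 and 10303488 overlap and hold the same kappa-B match, GGGAGGAGCC. No member window held the FOXO motif (3.78% of all). Cat and Prdx1, both higher in GD and lower at 200 µM, shared none of these motifs. Sod1 changed in the same directions. Its window held a CCAAT match, as that of Cat did, and a GC box, as that of Prdx1 did. A match is a description of letters in a window, and a window without a match says nothing about a factor.

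By similarity of pattern, measured as the root mean square difference of log2(TPM + 1) over the 12 libraries after centring each gene, the nearest genes to Sod2 were Vcam1 (0.27), Ccl20 (0.28) and Tnip3 (0.37), where the SD of Sod2 itself was 1.23. Vcam1 encodes an adhesion molecule of the cell surface, Ccl20 a chemokine, and Tnip3 a protein that interacts with TNFAIP3. Vcam1 had 8.74, 5.62 and 5.61 TPM in GD libraries, 22.6, 11.9 and 23.0 TPM at 100 µM, 42.4, 26.6 and 45.2 TPM at 200 µM, and 4.44, 3.76 and 4.07 TPM in control libraries. Replicate 2 of the 100 µM group was the lowest of its group for Sod2, Vcam1, Ccl20 and Tnip3 alike. These genes were picked for closeness to Sod2 over the same 12 libraries, so this shared low value is part of the selection. Ccl20 did not exceed 0.6 TPM in GD or control libraries, where the added 1 shapes its log2 value.

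**Figure D4:**
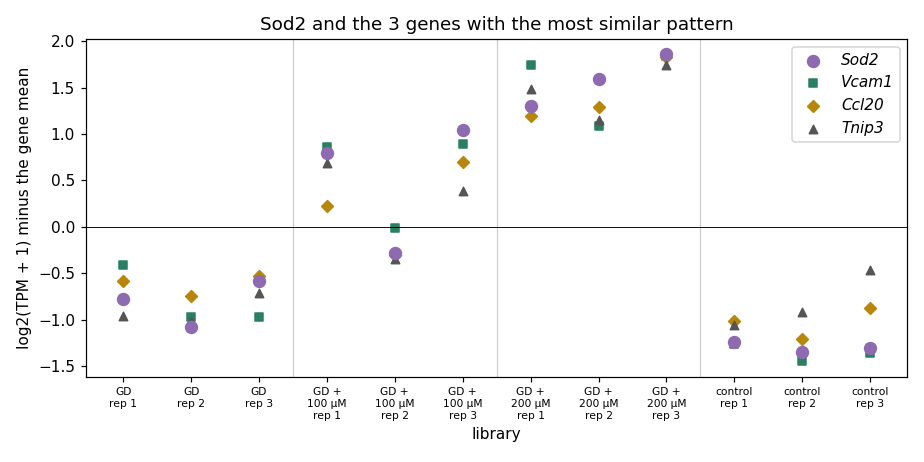
Log2(TPM + 1) of Sod2 and of Vcam1, Ccl20 and Tnip3, each minus its own mean over the 12 libraries (vertical axis), in every library (horizontal axis, grouped as GD, 100 µM, 200 µM and control). Each symbol is 1 gene in 1 library. All 4 genes are below their mean in every GD and control library and above it in every 200 µM library, and replicate 2 is the lowest of the 100 µM group. Vcam1, Ccl20 and Tnip3 were picked for closeness to Sod2 over these same 12 libraries.

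The nearest gene to Cat was Srxn1 (0.12, with an SD of Cat of 0.47), which encodes sulfiredoxin, the enzyme that repairs over-oxidized peroxiredoxins, followed by Zfp394 and Zfand5. Gpx1 was nearest to Glyctk (0.067), glycerate kinase. Sod1 was nearest to Gabarap (0.060), an autophagosome protein. Prdx5 was nearest to Psph (0.12), phosphoserine phosphatase, which also peaked at 100 µM with 139 ± 11.7 TPM, against 87.6 ± 3.3 TPM in GD (SD, n = 3 each), and Prdx1 was nearest to Rad17 (0.087) and its own relative Prdx1l1 (0.091).

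Of 9 further genes of the same families 6 were tested, and all 6 fell in GD against control as deposited (Sod3, Ccs, Prdx4, Gpx3, Gpx7 and Gpx8), where 67.6% of all tested genes fell. After scaling 3 fell (Sod3, Gpx3 and Gpx7) and 1, Gpx8, rose, beside 38.5% of all tested genes in each direction. The median of the 6 was -1.15 as deposited and -0.59 after scaling. Gpx2, Gpx5 and Gpx6 are listed at 0 in every library. Sod3, the secreted dismutase, had 4.60, 4.77 and 3.71 TPM in GD libraries, 4.08, 5.50 and 4.98 TPM at 100 µM, 21.2, 16.4 and 18.9 TPM at 200 µM, and 46.2, 47.3 and 49.3 TPM in control libraries. It fell in GD against control (log2 difference -3.19, limma adjusted p = 1.01e-10), and it rose at 200 µM against GD by 1.89 (adjusted p = 1.89e-07) but not by the test at 100 µM (0.13, adjusted p = 0.561). The jump thus lay between the doses (1.76, adjusted p = 7.21e-07). Ccs, the copper chaperone that loads Sod1, fell in GD (log2 difference -0.65, adjusted p = 8.15e-07) where Sod1 rose, though it was at 0.12 after scaling (adjusted p = 0.182). Gpx7, a peroxidase of the endoplasmic reticulum, fell in GD (log2 difference -2.07, adjusted p = 1.87e-10; -1.31 after scaling, adjusted p = 2.4e-08), and Prdx4, the peroxiredoxin of that compartment, fell by 0.89 (adjusted p = 1.46e-08; -0.12 after scaling, adjusted p = 0.162). At 200 µM against GD 5 of the 6 rose as deposited and 1, Sod3, after scaling, beside 32.0% and 22.4% of all tested genes.

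The thioredoxin and glutaredoxin system returns peroxiredoxins to their reduced state. Of the 14 genes listed for it, 5 rose and 6 fell in GD against control as deposited (median -0.011), and 9 rose and 3 fell after scaling (median 0.76), beside 14.0% and 67.6% of all tested genes as deposited and 38.5% each way after scaling. Those that fell include Txnip, which encodes an inhibitor of thioredoxin and not a reducing enzyme. Txnip had a mean of 0.16 TPM in GD and 58.4 TPM in control cells (log2 difference -5.69, limma adjusted p = 1.48e-12). At 200 µM it had 0.46 TPM and is counted among the genes that rose against GD (0.34, adjusted p = 0.0301). Txnrd1, cytosolic thioredoxin reductase, had 97.2, 101 and 77.3 TPM in GD libraries, 59.2, 63.6 and 63.6 TPM at 100 µM, 52.5, 59.5 and 56.7 TPM at 200 µM, and 50.4, 52.7 and 47.9 TPM in control libraries. It rose in GD against control by 0.85 (limma adjusted p = 1.75e-06; 1.61 after scaling, adjusted p = 3.19e-10) and fell against GD by 0.55 at 100 µM (adjusted p = 0.00266) and by 0.69 at 200 µM (adjusted p = 6.82e-05). Its mitochondrial counterpart Txnrd2 fell in GD (log2 difference -0.83, adjusted p = 4.02e-06; -0.11 after scaling, adjusted p = 0.354). Srxn1 rose in GD by 1.06 (adjusted p = 2.02e-05; 1.80 after scaling, adjusted p = 1.35e-08) and fell at 200 µM against GD by 0.67 (adjusted p = 0.00299). Thioredoxin itself, Txn1, was at 0.0013 in GD against control as deposited (adjusted p = 0.983) and at 0.77 after scaling (adjusted p = 3.82e-06). At 200 µM against GD, 4 of the 14 rose and 3 fell as deposited (32.0% and 11.4% of all tested genes), and 3 rose and 5 fell after scaling (22.4% and 24.4%).

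Of 18 tested genes of glutathione synthesis and use, 8 rose and 4 fell in GD against control as deposited (median 0.26), and 14 rose and 3 fell after scaling (median 1.00). The shares of all tested genes were 14.0% and 67.6% as deposited and 38.5% each way after scaling. The smallest adjusted p among them belonged to glutathione transferase genes, of which close relatives may share reads. Gsta1 rose in GD by 3.63 (limma adjusted p = 7.31e-13) and fell at 200 µM against GD by 0.46 (adjusted p = 0.000126), whereas Mgst3 fell in GD (log2 difference -5.02, adjusted p = 5e-11) and rose at 200 µM by 2.21 (adjusted p = 1.01e-06). Gclc, which lies outside the naming rule and was chosen after its values were seen, is the catalytic subunit of the rate-limiting enzyme of glutathione synthesis. It had 50.4, 57.7 and 36.1 TPM in GD libraries, 30.1, 35.6 and 30.9 TPM at 100 µM, 21.6, 26.2 and 22.8 TPM at 200 µM, and 13.4, 13.2 and 11.8 TPM in control libraries. It rose in GD by 1.80 (limma adjusted p = 7.11e-08) and fell at 200 µM against GD by 0.98 (adjusted p = 0.000129). For Gclm and Gss, also of glutathione synthesis and outside the naming rule, no rise in GD passed as deposited. Gclm was at 0.23 in GD against control (adjusted p = 0.0795), and at 0.95 after scaling (adjusted p = 1.23e-06). At 200 µM against GD it was at -0.33 (adjusted p = 0.0353; -0.52 after scaling, adjusted p = 0.000676), so its directions were those of Gclc. Gss was at -0.75 in GD against control (adjusted p = 1.07e-06), and at 0.0071 after scaling (adjusted p = 0.943). At 200 µM against GD, Gss was at -0.14 (adjusted p = 0.174), and at -0.33 after scaling (adjusted p = 0.00713). Gsr, glutathione reductase, which supplies the glutathione that Gpx1 and Gpx4 use, rose in GD by 0.75 (adjusted p = 4.37e-06; 1.49 after scaling, adjusted p = 1.05e-09) and fell at 200 µM by 0.57 (adjusted p = 0.000239). Gclc and Gsr were thus higher in GD than in control and lower at 200 µM than in GD, as Sod1, Cat, Prdx1 and Prdx6 were. The peroxidase Gpx1 was lower in GD than in control and higher at 200 µM than in GD. GD replicate 3, the library with the lowest median of tested genes, was the lowest GD library for Txnrd1, Srxn1, Gclc, Gsr, Cat, Prdx1 and Prdx6 alike, and its part in the levels of the partner genes was not tested.

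**Figure D5:**
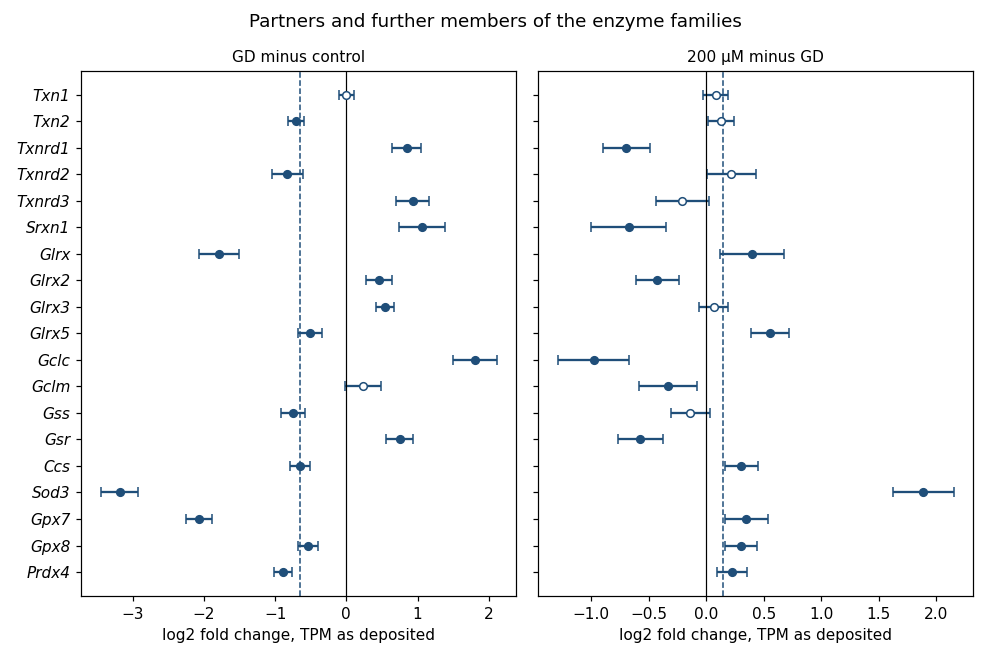
Log2 fold changes of partner and related genes in GD against control (left) and 200 µM against GD (right), TPM as deposited, with 95% intervals (horizontal axes, a separate range per panel). Filled circles have an adjusted p under 0.05 over all tested genes and open circles do not, and the dashed line is the median of all tested genes. Txnrd1, Srxn1, Gclc and Gsr lie right of 0 in GD against control and left of 0 at 200 µM against GD, and Sod3 and Gpx7 lie the other way.

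Gpx1 and Gpx4 contain selenocysteine. Of 8 genes of the machinery that makes and inserts it, 4 fell and none rose in GD against control as deposited (median -0.21), and 5 rose and 3 fell after scaling (median 0.46). Of all tested genes 67.6% fell and 14.0% rose as deposited, and 38.5% moved each way after scaling. Sephs2, which makes the selenium donor, was among those that fell under both scalings, by 1.46 as deposited (limma adjusted p = 5.43e-08) and 0.72 after scaling (adjusted p = 5.29e-06), and it rose at 200 µM against GD by 0.49 (adjusted p = 0.00338; 0.31 after scaling, adjusted p = 0.00915). Of 9 tested genes of other selenoproteins, 7 fell and 2 rose in GD as deposited, and 5 fell and 3 rose after scaling (median -0.24). Of 19 genes for the assembly and metabolism of the peroxisome, where Cat resides, 15 fell and none rose in GD as deposited (median -0.52; 67.6% of all tested genes fell), and 9 rose and 7 fell after scaling (median 0.21; 38.5% of all each way). Pex19, a carrier of peroxisomal membrane proteins, fell by 2.31 (adjusted p = 1.11e-10) and by 1.54 after scaling (adjusted p = 5.22e-09). Of 19 tested genes of mitochondrial import and matrix, 5 rose and 9 fell in GD as deposited (median -0.13), and 15 rose and 1 fell after scaling (median 0.62).

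Among 11 tested genes of oxidases and other sources of superoxide and peroxide, 2 rose and 9 fell in GD against control as deposited (median -1.09), beside 14.0% and 67.6% of all tested genes. After scaling 3 rose and 7 fell (median -0.42), beside 38.5% each way. Xdh, xanthine dehydrogenase, fell in GD (log2 difference -3.57, limma adjusted p = 1.93e-09) and rose at 200 µM against GD by 1.80 (adjusted p = 1.16e-05). Maoa, monoamine oxidase A of the outer mitochondrial membrane, rose in GD by 0.56 (adjusted p = 0.00466; 1.31 after scaling, adjusted p = 7.76e-07) and fell at 200 µM by 1.23 (adjusted p = 4.37e-05).

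Among 14 tested regulators of these enzymes, 4 rose and 8 fell in GD against control as deposited (median -0.35), beside 14.0% and 67.6% of all tested genes. After scaling 10 rose and 4 fell (median 0.38), beside 38.5% each way. Nfe2l2, which encodes NRF2, rose in GD by 0.47 (limma adjusted p = 0.000125; 1.23 after scaling, adjusted p = 4.75e-10) and was at 0.20 at 200 µM against GD (adjusted p = 0.0595; 0.0086 after scaling, adjusted p = 0.897). Its repressor Keap1 was at -0.29 in GD (adjusted p = 0.00437), with the direction turned after scaling (0.44, adjusted p = 0.000119). Nfkb1, the p105 and p50 subunit of NF-kappa-B, of which Sod2 is a known target, had 13.9, 16.0 and 14.7 TPM in GD libraries, 21.4, 18.2 and 23.6 TPM at 100 µM, 27.2, 27.1 and 31.6 TPM at 200 µM, and 20.6, 20.4 and 18.8 TPM in control libraries. It was higher than in GD by 0.47 at 100 µM (adjusted p = 0.00944) and by 0.90 at 200 µM (adjusted p = 1.75e-05). In GD against control it was lower as deposited (-0.40, adjusted p = 0.00257) and higher after scaling (0.33, adjusted p = 0.0200). Rela, another NF-kappa-B subunit, had a mean of 45.2 TPM in GD, 45.8 TPM at 100 µM, 57.9 TPM at 200 µM and 65.2 TPM in control cells. As deposited, the mean of Rela was thus highest in control cells. Median-of-ratios scaling divides control libraries by 1.42 to 1.48 and deprived libraries by 0.742 to 0.995, so this order is that of TPM alone. Any part of Rela in the level of Sod2 was not tested. Foxo3, another regulator of Sod2 and Cat, fell in GD (log2 difference -1.54, adjusted p = 1.17e-07; -0.85 after scaling, adjusted p = 1.17e-06).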

How the data were processed

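RNA of 12 libraries was measured. The deposited table holds 1 column of TPM per library, deposited by the authors. HISAT2 and StringTie appear among the tools of the submitters' processing notes. No version, genome build, annotation or strand setting is named there, and the unit was read from the values. TPM hold no depth, so no counting interval was computed. Genes at 1 TPM or more in at least 3 libraries were analysed as log2(TPM + 1), which understates the change of low genes, with limma-trend (limma 3.58.1, R 4.3.3) in 1 model of 4 group means, two-sided, with Benjamini-Hochberg adjustment over 12314 genes. The procedure was tested on simulated data. Alternatives were median-of-ratios and quantile scaling, leaving out ribosomal protein and ferritin genes, a pseudocount of 0.1, no filter or 5 TPM, no trend, a replicate block and leaving out each library. All 10 members are named, and so are genes of 3 companion lists (other family members, thioredoxin and glutaredoxin system, regulators), up to 4 genes of smallest adjusted p per comparison in other lists, and the 3 genes of most similar pattern. Members and lists were chosen with earlier results of these data known. Promoter windows are from RefSeq (GRCr8).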

Additional observations from a re-analysis of the deposited data

How the results depend on the processing

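Scaling decided more than any other choice. With median-of-ratios scaling 8 members were higher and 1 lower in GD, 100 µM and 200 µM against control, 2 were higher at 200 µM against GD and 1 at 200 against 100 µM. The direction turned for Gpx4 and Prdx3 in GD against control (0.37 and 0.62), Prdx1 at 200 against 100 µM (-0.15), Gpx4 at 100 µM against control (0.54), and Prdx2 and Prdx3 at 200 µM against control (0.036 and 0.29). With quantile normalization it turned for Prdx3 in GD (0.32) and at 200 µM (0.13) against control, Prdx1 between the doses (-0.048) and Gpx4 at 100 µM against control (0.042). Without ribosomal protein and ferritin genes it turned for Gpx4 and Prdx3 in GD (0.0099 and 0.26), Gpx4 at 100 µM (0.20) and Prdx3 at 200 µM (0.058) against control, and Prdx1 between the doses (-0.050), and 8 members were higher at 100 µM than in control. With no filter 1 member, Prdx6, fell at 100 µM against GD, since Cat lost its call (adjusted p = 0.0557). Of the 60 values of single members, 8 lost and 8 gained a call with median-of-ratios scaling while keeping their direction. Among those that turned, Prdx2 at 200 µM against control also lost its call (limma adjusted p = 7.67e-06 as deposited and 0.777 after scaling). Prdx3 in GD against control turned and gained one (limma adjusted p = 0.104 and 8.08e-06). Another 5 lost a call without a filter and 5 without trend, mostly Prdx1 and Gpx4. Prdx5 at 200 µM against control lost its call with quantile normalization (0.12, adjusted p = 0.411). A pseudocount of 0.1 and a filter of 5 TPM turned no direction and changed no call among the 60 values of single members.

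Leaving out 1 library at a time gave 1 to 3 members lower at 100 µM against GD. It carried some small differences across 0: Prdx2 at 100 µM against GD (-0.076 to 0.017), Prdx1 and Prdx6 between the doses (-0.041 to 0.048 and -0.086 to 0.017), Prdx3 at 100 µM against control (-0.00964 to 0.11), and Gpx4 and Prdx6 at 200 µM against control (-0.00616 to 0.076 and -0.038 to 0.065). Calls that rest on single libraries are named in the report.

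Same-numbered libraries deviated together with correlations of -0.094 to 0.21. Each 200 µM library correlated best with the GD library of its own number, while some libraries in other comparisons did not. These values cannot settle whether a number marks a shared culture or day, which the labels do not say. With a replicate block 1 member call was lost, Gpx4 at 100 µM against GD (adjusted p = 0.0569). Over all genes the block made 10105 calls in GD against control (10042 without it) and 5474 at 200 µM against GD (5350 without it). The causes of these changes were not tested. Depth could not be used to judge any value.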
